A study of Mus musculus with 16 samples.

Results

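Lin7b, Shank3, Vamp2 and Amph encode proteins of the 2 sides of the synapse, and the ratios of their transcripts between HdhQ111 mice and wildtype mice were examined in brain and, as a contrast, in liver. The members were found by gene symbol in the platform's annotation and came to 4 genes with 6 probes, out of 9026 named genes and 20794 probes. Lin7b, Shank3 and Vamp2 had 1 probe each and Amph had 3, which are called here by their row in the value table (8642, 16717 and 20458). The genes had been picked with earlier results of these data in view, so their values are a description and carry no test.

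The mutant group consisted of 4 C57BL/6J males heterozygous for HdhQ111, a knock-in allele with an expanded CAG repeat in Htt, the mouse huntingtin gene, taken at 18 weeks of age. The reference was an RNA pool of 4 wildtype C57BL/6J males of that age, made for each tissue. Each mutant RNA was hybridised on 2 arrays against the pool with a 2-colour method, once in Cy5 and once in Cy3, giving 8 arrays per tissue, and the same mice gave both tissues. The pool was on every array of a tissue, so the spread among wildtype mice was not measured. Brain and liver were whole tissue samples per the labels, and in such samples fewer cells of a type and less RNA per cell cannot be told apart.

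A chemical synapse joins a presynaptic terminal, where transmitter is stored in vesicles, to a postsynaptic membrane in which receptors are held by scaffold proteins. Lin7b is a small PDZ-domain protein that works with Cask and Apba1 in sorting and anchoring membrane proteins at synapses and at epithelial junctions. Shank3 is a master scaffold of excitatory postsynaptic densities, linking receptor complexes through Dlgap and Homer proteins to actin, and its loss causes an autism-related syndrome. Vamp2, or synaptobrevin, is the vesicle SNARE that pairs with syntaxin and Snap25 to drive fusion. Amph, amphiphysin, senses membrane curvature and recruits dynamin when vesicles are retrieved by clathrin-mediated endocytosis. Mutant huntingtin is known to disturb synaptic signalling in cortex and striatum.

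All values are log2 ratios, likely of HdhQ111 over wildtype, so that a positive value is called higher. That sign is taken from which RNA the labels put in channel 1 and from the stated design, and no header gives it. Each array gave 19530 to 20584 values, with array medians from -0.128 to 0.246 that the authors had not brought to 0. The highest median of a mouse's paired brain arrays, 0.13, was that of mouse 3, and the mean of the 4 mouse medians was 0.020 in brain and -0.023 in liver. Gene symbols were read with an offset of 11 rows between annotation and values, which no source states. Housekeeping probes for ribosomal, respiratory, proteasome and chaperonin subunits had a low-scatter score of 0.149 at that offset, against 0.024 at offset 0 and at most 0.073 at any other of 121 offsets tried. Pairs of probes of 1 gene correlated on average by 0.102 at offset 11, by 0.042 at offset 0 and by at most 0.061 elsewhere. Every gene named below rests on this offset.

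**Figure D1:**
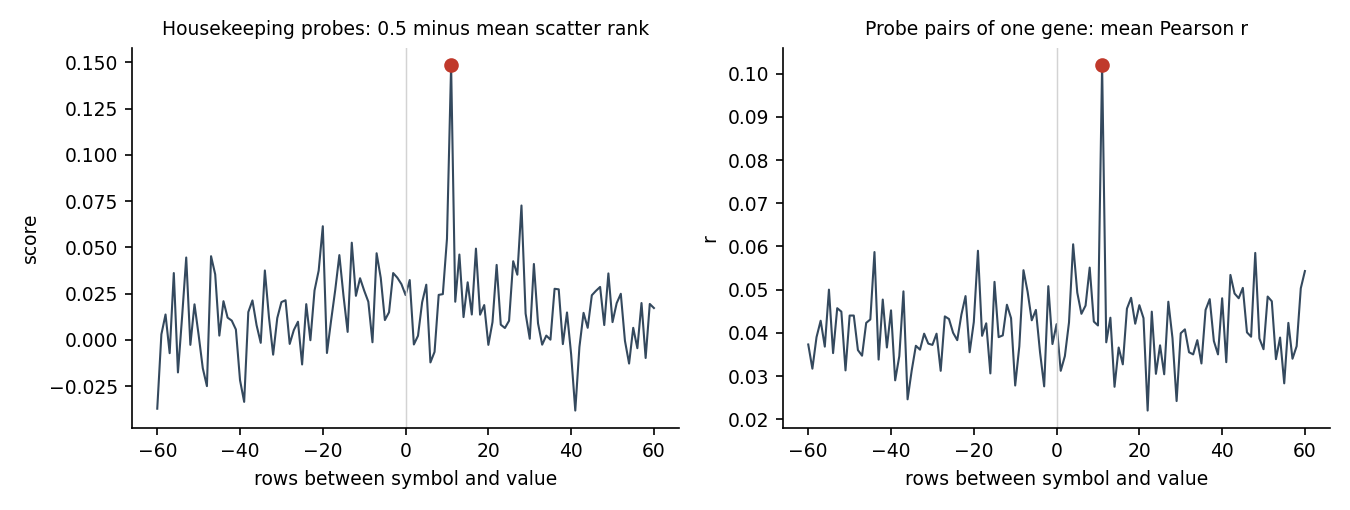
Scores for each number of rows between a platform symbol and the value row it is given to. Left, 0.5 minus the mean rank of the spread over mice for housekeeping probes; right, mean Pearson r between probes of 1 gene over the 8 mouse values. Both curves peak at 11 rows (red dot), at 0.149 and 0.102.

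In brain, Lin7b had the highest ratios of the members. Its pair means were 1.18, 0.48, 1.17 and 1.56 in mice 1 to 4, or 1.10 ± 0.45 (SD, n = 4 mice), which corresponds to 2.14-fold. All 4 mice and all 8 arrays lay above 0. Over the whole array, 6.02% of the probes with 4 mice lay above 0 in every mouse and 0.151% on every array, and Lin7b was chosen from this same contrast. The mean was close to equal in both dye orientations, at 1.08 ± 0.78 with mutant RNA in Cy5 and 1.11 ± 1.05 with it in Cy3.

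The single arrays of Lin7b differed much more than those means. The Cy5 arrays of mice 1 to 4 read 2.20, 0.50, 1.01 and 0.62, and the Cy3 arrays 0.15, 0.46, 1.32 and 2.50. Mouse 2 was low on both arrays, mouse 1 was high in Cy5 alone and mouse 4 high in Cy3 alone. The median size of the difference between the arrays of a pair was 1.09 for Lin7b, against 0.613 for the median brain probe. The brain mean of Lin7b ranked 266 from the top among 19325 probes.

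Lin7b did not show this in liver. Its pair means there were 0.022, 0.14, -0.12 and -0.0075, a mean of 0.0095 ± 0.11 (n = 4), with 2 mice on each side of 0. Mouse 1 had a wide pair, at -0.72 in Cy5 and 0.76 in Cy3. The liver-minus-brain difference was below 0 in all 4 mice, at -1.16, -0.34, -1.29 and -1.57, and 12.7% of all probes with 8 mouse values did so in every mouse. By limma with Benjamini-Hochberg adjustment and no mouse block, 1 of 19055 probes (0.00525%) passed for the difference between the tissues. It was no probe of these genes.

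**Figure D2:**
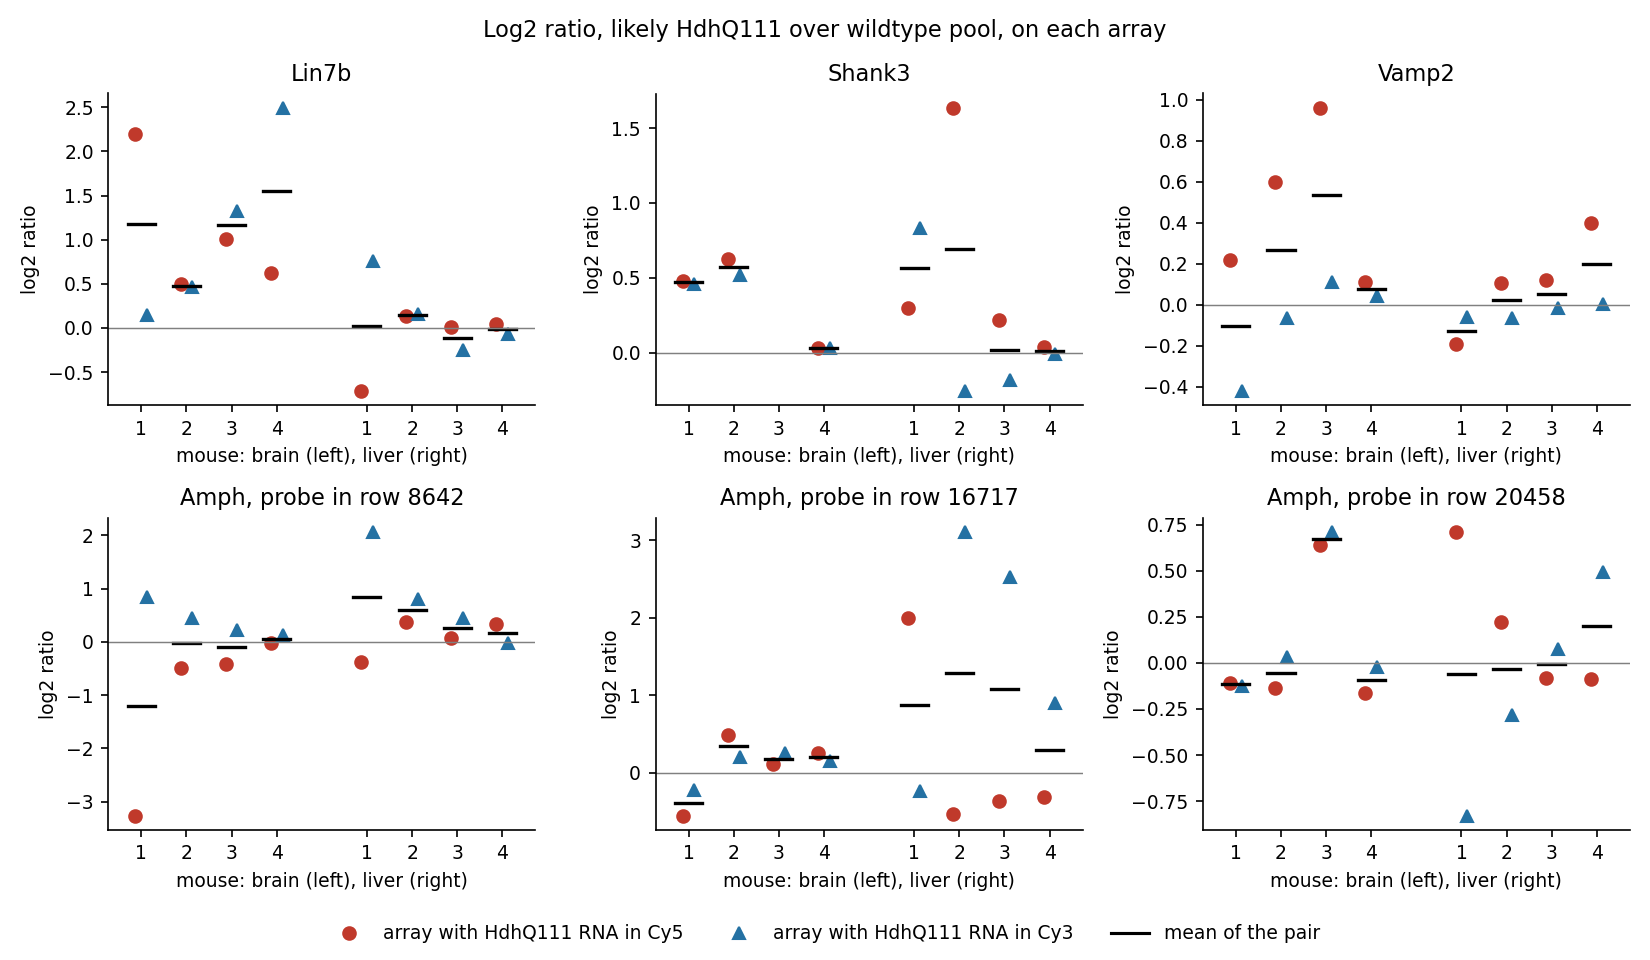
Log2 ratio on each array for the 6 probes, by tissue and mouse. Circles are arrays with HdhQ111 RNA in Cy5, triangles those with it in Cy3, and bars the mean of a pair; vertical scales differ. Lin7b lies above 0 on all 8 brain arrays, while the liver pairs of Amph row 16717 split across 0 in all 4 mice.

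Shank3 had smaller but closely repeated ratios in brain. The Cy5 and Cy3 arrays read 0.48 and 0.46 in mouse 1, 0.62 and 0.52 in mouse 2, and 0.028 and 0.031 in mouse 4. Both arrays of mouse 3 were empty, so the mean of 0.36 ± 0.29 rests on 3 mice. All 6 arrays lay above 0, mouse 4 by very little. The median difference within a pair was 0.019, the smallest for any of the 6 probes in either tissue. Among probes with 3 mice in brain, 11.5% lay above 0 in all of them.

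In liver Shank3 had nearly the same mean, 0.32 ± 0.36 (n = 4), but not the same agreement. Its pair means were 0.57, 0.69, 0.017 and 0.014, so mice 1 and 2 were the higher ones in both tissues and mouse 4 was near 0 in both. In mouse 2 the arrays read 1.64 in Cy5 and -0.26 in Cy3. All 4 liver pair means lay above 0, as for 7.56% of all liver probes with 4 mice, but only 1 of the 4 Cy3 arrays did. The liver-minus-brain difference was 0.096, 0.12 and -0.016 in mice 1, 2 and 4.

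Vamp2 depended on the dye in brain. The Cy5 arrays read 0.22, 0.60, 0.96 and 0.11 and the Cy3 arrays -0.42, -0.063, 0.11 and 0.041. All 4 Cy5 values were above 0, with a mean of 0.47 ± 0.39, while the Cy3 mean was -0.083 ± 0.24. The pair means of -0.10, 0.27, 0.54 and 0.076 averaged 0.19 ± 0.27 (n = 4). The mean was 0.080 without mouse 3 and 0.29 without mouse 1. Mouse 1 was lowest and mouse 3 highest, as they were in the median brain ratio over all named genes (-0.10 and 0.15). With array medians removed, the mean of Vamp2 was 0.18. The part of the shift between mice in its single mouse values was not tested.

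In liver Vamp2 was close to 0. The pair means were -0.13, 0.021, 0.054 and 0.20, with a mean of 0.037 ± 0.13, and the Cy3 arrays lay between -0.066 and 0.0020. The other vesicle SNAREs with a named probe were near 0 as well. Vamp1, which serves fast synapses of brainstem and spinal cord, averaged -0.0026 ± 0.23 in brain and 0.030 ± 0.26 in liver. Vamp3, the widely expressed form, averaged 0.0038 ± 0.36 and -0.013 ± 0.18. No named row was found for Vamp4, nor for Lin7a, Lin7c, Shank1 and Shank2, which are not analysed here.

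The 3 probes of Amph disagreed, although the platform gives them the same transcript accession. In liver, row 16717 had the highest ratios, with pair means of 0.88, 1.29, 1.08 and 0.30, or 0.89 ± 0.43 (n = 4), equal to 1.85-fold. Row 8642 was at 0.46 ± 0.31, with 0.84, 0.59, 0.26 and 0.16. Row 20458 was at 0.026 ± 0.12, with -0.060, -0.032, -0.0035 and 0.20. The first and the second of these probes were above 0 in all 4 mice and the third in 1. Of all liver probes with 4 mice, 7.56% were above 0 in every mouse.

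The liver ratio of row 16717 came from 1 array of each pair. The Cy3 arrays of mice 2, 3 and 4 read 3.11, 2.53 and 0.90, and their Cy5 arrays -0.53, -0.36 and -0.31. In mouse 1 the order was turned, with 2.00 in Cy5 and -0.24 in Cy3. Of its 8 arrays, 4 were therefore below 0, and the mean was 0.20 ± 1.21 over the Cy5 arrays and 1.57 ± 1.53 over the Cy3 arrays. The median difference within its pairs was 2.57, against 0.498 for the median liver probe. Row 8642 also leaned on the Cy3 arrays, at 0.83 ± 0.89, against 0.10 ± 0.35 in Cy5.

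**Figure D3:**
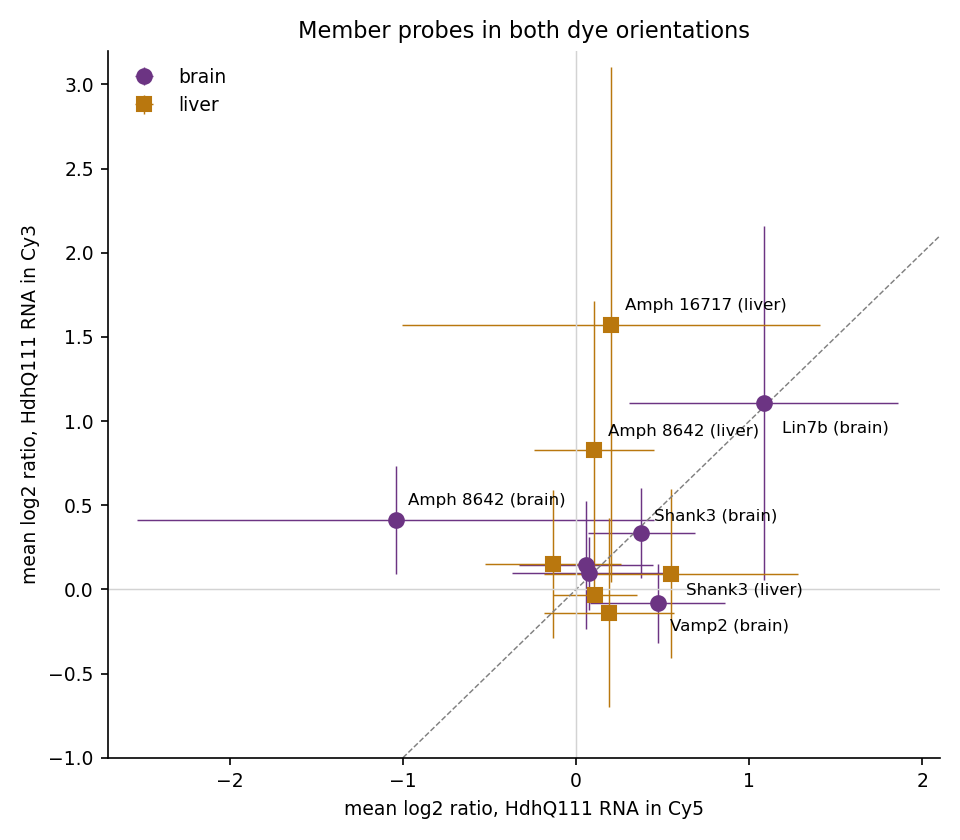
Mean log2 ratio over mice with HdhQ111 RNA in Cy5 (x axis) against that with it in Cy3 (y axis) for each probe in brain (circles) and liver (squares); lines are 1 SD over 4 mice (3 for Shank3 in brain), and the dashed line marks equal values. Lin7b in brain lies on the line at 1.08 and 1.11, and Amph row 16717 in liver far above it at 0.20 and 1.57.

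In brain the Amph probes had means near 0 or below it. Row 16717 was at 0.086 ± 0.32 and row 20458 at 0.10 ± 0.38, where mouse 3 alone read 0.67 and the other mice -0.12 to -0.053. Row 8642 was at -0.31 ± 0.60, a mean made by the pair of -3.26 in Cy5 and 0.85 in Cy3 in mouse 1. All 4 Cy5 arrays of that probe were below 0 and all 4 Cy3 arrays above. Without mouse 1 its pair means lay between -0.088 and 0.057.

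The tissue contrast of Amph split the probes in the same way. The liver-minus-brain difference was above 0 in all 4 mice for row 16717 (0.80 ± 0.50) and row 8642 (0.78 ± 0.87), and 5.42% of all probes were above 0 in every mouse. For row 20458 it was -0.077 ± 0.42. Over the 4 mice of a tissue, rows 8642 and 16717 correlated by r = 0.97 in brain and 0.47 in liver. With row 20458 they correlated by 0.30 and 0.26 in brain and by -0.78 and -0.87 in liver. In brain, mouse 1 was the lowest on both row 8642 (-1.21) and row 16717 (-0.39). In mice 2 to 4, row 8642 read -0.020, -0.088 and 0.057, and row 16717 read 0.34, 0.18 and 0.20. Their brain r without mouse 1 was not computed. Bin1, the amphiphysin expressed in most tissues, had 2 probes. Its row 16768 averaged 0.065 ± 0.17 in brain against -0.26 ± 0.71 in liver. Row 17183 averaged -0.67 ± 1.08 in brain and had 1 mouse in liver.

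No probe of the 4 genes passed limma's test against 0 in either tissue, and neither did any other probe. With Benjamini-Hochberg adjustment at 0.05, 0 of 19325 brain probes (0%) and 0 of 20127 liver probes (0%) passed. Unadjusted limma p-values under 0.05 were had by 677 and 1409 of them. Chance alone would give a share of about 0.05, and the brain count lay below that share and the liver count above it. The rows next to each member on the array were looked at as well. Beside Lin7b, Tmod2 was at 0.21 ± 0.18 and Uchl1 at 0.10 ± 0.28 in brain. Beside Amph row 16717 in liver, L1cam was at 0.31 ± 0.90 and Isy1 at 0.18 ± 0.21. Beside Shank3 in brain, Pmm1 was at 0.15 ± 0.66 and Smarcc2 at -0.069 ± 0.23. Beside Vamp2 in brain, Ndufa1 was at 0.17 ± 0.23 and Inpp1 at 0.14 ± 0.18, close to the 0.19 ± 0.27 of Vamp2. Some rows near the Amph probes were extreme. Isy1, beside row 16717, was at 1.68 ± 4.41 in brain. An unnamed row beside row 20458 read 7.40 in liver, and 1 near row 8642 read 8.48 in brain, each in 1 mouse. On the chromosome, Snrnp70, the nearest gene to Lin7b with a named probe, was at 0.0095 ± 0.31 and 0.089 ± 0.12 in brain on its 2 probes. On either side of Shank3, Arsa was at -0.0019 ± 0.24 in brain, and Acr at -0.41 ± 0.49 (3 mice) and -0.053 ± 0.41 (2 mice) on its 2 probes. Vps41, beside Amph, was at -0.31 ± 0.38 in liver.

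The wider synaptic machinery gave the setting for these values, through 6 lists holding 127 genes by role. Without the 4 members, 71 genes were measured in brain, 39 above 0 and 32 below, with a median of 0.015. Over all 8621 named genes 56.9% were above 0 and the median was 0.024. Above 0 in all 4 mice were 3 of the 69 with 4 mice, against 6.06% of named genes, and below 0 in all 4 were 2, against 3.97%. In liver 72 were measured, 36 on each side of 0, with a median of 0.0034. Over all named genes in liver 43.2% were above 0 and the median was -0.031. There 6 of 65 were above 0 in all 4 mice, against 6.55%, and 5 below, against 14.2%. None of the probes of these lists passed limma's test, as none did on the whole array within a tissue.

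By role, most list medians in brain were near 0, while single genes spread more widely. Of the Lin7 complex, 8 genes were measured, Lin7b among them, with a median of 0.10. That median was 0.33 on the Cy5 arrays and -0.087 on the Cy3 arrays. The partners ranged from Caskin2 at -0.17 ± 0.20 to Apba2, a Munc18-binding adaptor, at 0.26 ± 0.35. Cask, the kinase-like scaffold that binds Lin7 proteins, was at -0.072 ± 0.39. Postsynaptic scaffolds had a median of -0.027 over 19 genes, and the highest was Dlg2, a relative of Dlg3, at 0.44 ± 0.41, above 0 in 3 of 4 mice. Dlg3, a membrane-associated guanylate kinase of the postsynaptic density, was above 0 in all 4 mice at 0.19 ± 0.25, but at -0.070 on the Cy3 arrays. Homer1, a binding partner of Shank proteins, was at -0.11 ± 0.08 and the adhesion protein Nlgn3 at -0.16 ± 0.14, both below 0 in all 4 mice, and Nlgn3 was at 0.017 on the Cy5 arrays.

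The lists of release and recycling genes had brain medians near 0 too, with wide single genes. SNARE and fusion genes had a median of 0.0038 over 13 genes and active zone genes 0.0030 over 6, where Ppfia2, a liprin scaffold, was at 0.57 ± 1.25. Snap23, the widely expressed relative of Snap25, was above 0 in all 4 mice at 0.36 ± 0.33, with -0.27 on the Cy5 arrays and 0.99 on the Cy3 arrays. Vesicle membrane genes had a median of 0.041 over 8 genes, and among them Sncb, beta-synuclein, was at 0.23 ± 0.06, with 0.64 on the Cy5 arrays and -0.18 on the Cy3 arrays. Endocytosis genes had a median of 0.0046 over 21 genes, and none was on 1 side of 0 in all 4 mice. The lowest of them was Dnm3, a dynamin, at -0.46 ± 0.95, followed by Bin1 at -0.30 ± 0.47. The brain medians of the lists were lowest in mouse 1 and highest in mouse 3 for all 6 lists, at -0.15 and 0.24 over the 75 measured genes together, and over all named genes the same mice had -0.10 and 0.15. With array medians removed, the brain median over the 6 lists together was 0.0145, against 0.0285 before. The SNARE, active zone and endocytosis medians were then -0.010, -0.011 and -0.0094. Those of the Lin7 complex, postsynaptic scaffolds and vesicle membrane were 0.090, -0.041 and 0.027. The part of the shift between mice in the values of single genes was not tested.

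In liver a few list genes read higher on the Cy3 than on the Cy5 arrays, as Amph rows 16717 and 8642 did. Row 20458 of Amph went the other way, at 0.19 in Cy5 and -0.14 in Cy3. Snap23 was at 0.41 ± 0.37 (-0.15 in Cy5, 0.96 in Cy3) and Itsn2, an endocytic scaffold that binds dynamin, at 0.40 ± 0.28 (-0.24 and 1.04). Syngr1, a vesicle protein, was at 0.35 ± 0.39 (-0.069 and 0.77), and the active zone protein Bsn at 0.28 ± 0.23 (-0.58 and 1.14). Syt1, the calcium sensor of release, was at 0.16 ± 0.25 and above 0 in both orientations. Below 0 in all 4 mice were Rab3a, a vesicle GTPase, at -0.25 ± 0.09, the clathrin adaptor subunit Ap2s1 at -0.30 ± 0.22, the clathrin heavy chain gene Cltc at -0.19 ± 0.06, the inhibitory synapse scaffold Gphn at -0.13 ± 0.09 and Sncb at -0.079 ± 0.04. Gphn and Ap2s1 were above 0 on the Cy3 arrays and Sncb on the Cy5 arrays.

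**Figure D4:**
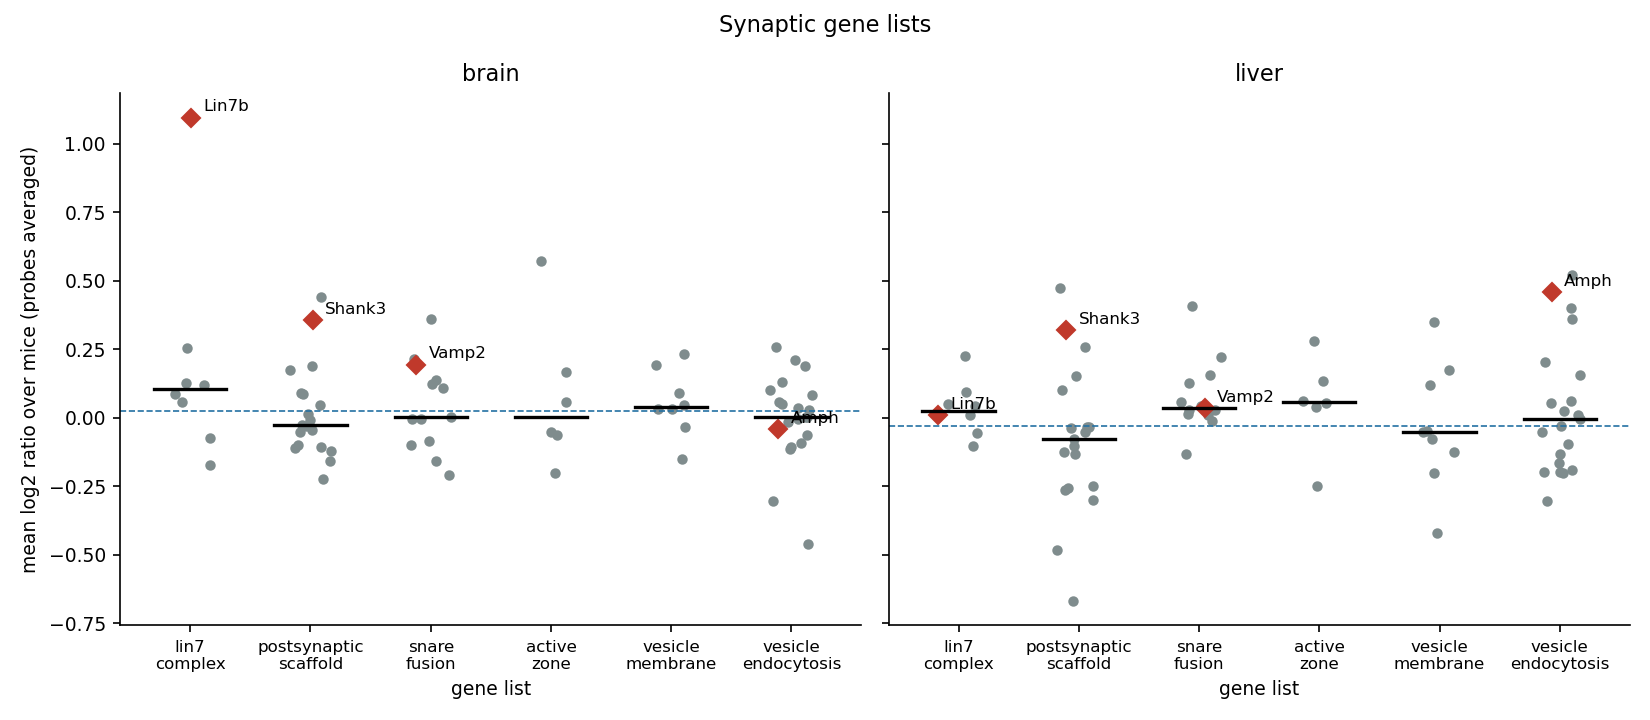
Mean log2 ratio over mice for each measured gene (probes averaged) in 6 synaptic lists, in brain and liver. Red diamonds are the 4 members, black bars list medians, and the dashed line the median of all named genes (0.024 in brain, -0.031 in liver); Lin7b at 1.10 is the highest gene of any list in brain.

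Cell type markers in brain differed by list. Neuronal markers had a median of 0.011 over 9 genes, from -0.098 to 0.15, and astrocyte markers -0.098 over 8, from -0.27 to 0.75. Oligodendrocyte markers were at -0.047 over 6 and microglia at 0.068 over 4. The astrocyte marker S100b, at 0.75 ± 0.43, and the microglial marker C1qa, at 0.32 ± 0.16, were above 0 in all 4 mice. So were the neuronal Eno2 (0.13 ± 0.14) and the endothelial Flt1 (0.12 ± 0.08), and 6.06% of all named genes. Yet 5 of the 8 astrocyte markers and 2 of the 4 microglial markers had means below 0. The astrocyte marker Fgfr3 (-0.15 ± 0.12) and the endothelial Tek (-0.22 ± 0.13) were below 0 in all 4 mice. Cholangiocyte markers had a median of -0.27 in brain over 4 genes and of 0.013 in liver over 5. The brain values were -0.69 ± 0.66 for Krt7 (3 mice), -0.53 ± 1.35 for Epcam, -0.00063 for Krt19 and 0.059 for Sox9. Pituitary markers had a median of -2.75 in brain over 5 genes, all below 0. Hepatocyte markers in liver had a median of -0.18 over 8 genes, and neuronal markers there 0.052 over 9. The part of cell composition in the values of Lin7b, Shank3, Vamp2 and Amph was not tested. The files hold ratios only, so the level of a defining marker in either tissue could not be read, and whether the neuronal members were above background in liver was not measured.

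The probes most like each member over the 8 mouse values were named by Pearson's r, as a description over 4 mice in 2 tissues. Array medians were left in these values. Lin7b averaged 1.10 in brain and 0.0095 in liver, and Amph row 8642 was at -1.21 in the brain of mouse 1. The part of tissue means, of single mice and of array medians in each r was not tested. Lin7b was followed most closely by Selenbp1 (r = 0.98), Cd99l2 (0.96) and Gk2 (0.92), out of 3949 probes compared, of which 8 had r over 0.9. Amph row 16717 was closest to Lig3 (0.96), Dlk1 (0.95) and Nup107 (0.94), with 5 of 5305 probes over 0.9. Amph row 8642 was closest to Rmnd5a (0.97), Dmd (0.96) and Zadh2 (0.95), and row 20458 to Ccdc130, Ninj1 and Rhot2 (0.97 each). Vamp2 resembled many probes, with 210 of 9586 over 0.9, led by Ctnnbl1 (0.99), Sub1 (0.98) and Laptm4b (0.98). Shank3 lacked mouse 3 in brain and was not compared.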

How the data were processed

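The values are the log2 ratios that the authors deposited as a series value table, 1 per probe and array. Base 2 was assumed. Scanner, background correction, normalization and spot filters are not given in the sources used here. Per the labels' protocols, cDNA of total RNA carried the dyes by indirect labelling. Symbols came from the platform's annotation, brought up to date through Entrez numbers, all 12771 of which matched GRCm38.p6. Across 20476 probes, the difference between the Cy5 and Cy3 arrays of a pair correlated between brain and liver (Spearman's rho 0.387) and the pair mean did not (-0.010), so pair means were taken as the genotype ratio.

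Each mouse contributed 1 value per probe, averaged over both dye orientations and missing if either array was empty. Probes with at least 3 mice were tested against 0 with limma 3.58.1 in R 4.3.3, two-sided, with Benjamini-Hochberg adjustment over all probes of a tissue; the fit was tested on simulated data. The pool counts as 1 control sample. The tissue difference was fitted over the 8 mouse values without a block. The smallest adjusted p by limma was 0.0024 in that fit, and 0.044 with the mouse as a block. Since the labels give brain and liver the same mouse numbers, the mouse block is a true pairing; Spearman's rho between a mouse's brain and liver deviations was 0.053, -0.013, 0.084 and 0.020. The replicates are 4 mice per tissue, each averaged over 2 arrays, and their number limits the precision.

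Genes named are the members, their families, the list genes with the largest mean on 1 side of 0 in all 4 mice (up to 3 per list and tissue), the likest probes and array neighbours; the other genes named were chosen after their values were seen. Members and lists were chosen with earlier results of these data known. Where a gene had several probes, the lists used their mean.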

Additional observations from a re-analysis of the deposited data

Results flagged for a closer look

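Among 36 sets of 4 mouse values (the members and the named list genes in each tissue), 6 held a mouse far from the other 3. For normally distributed values chance gives about 1 in 20. The share over all probes was not counted and these genes were picked by their values, so no excess can be read from the 6. In brain, Amph row 8642 was at -1.21 in mouse 1, against -0.088 to 0.057 in the others. Amph row 20458 was at 0.67 in mouse 3, against -0.12 to -0.053. Dlg3 was at 0.57 in mouse 3, against 0.030 to 0.11, and Snap23 at 0.86 in mouse 2, against 0.16 to 0.25. In liver, Homer1 was at -1.49 in mouse 1, against 0.045 to 0.24, and Syt1, over its probes, at 0.52 in mouse 2, against 0.0080 to 0.064. Sncb was above 0 in all 4 brains and below 0 in all 4 livers, with means of 0.23 and -0.079 and a liver-minus-brain difference of -0.31. Both signs turned with the dye: the brain mean was 0.64 on the Cy5 and -0.18 on the Cy3 arrays, the liver mean 0.044 and -0.20. The difference was picked out by its signs and was not tested for this gene alone.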

How the results depend on the processing

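Lin7b in brain stayed within 1 SD of its mean in every alternative with the same row, and took 0.20 with names at offset 0. Amph row 16717 in liver was at 0.20 on the Cy5 arrays, 1.57 on the Cy3 arrays and 0.12 at offset 0. Of 149 alternative values for the members' means, 17 moved by 1 SD or more and 17 had the other sign; for the list medians 11 and 35 of 168 did. Vamp2 was below 0 on the Cy3 arrays in both tissues. Probes called in brain numbered 0, but 2 on the Cy5 arrays, 1 with single arrays allowed and 0 to 1 when a mouse was left out. For liver minus brain 1 was called, 2 without floor ratios (values over 10 in size), 0 with all 4 mice required and 0 to 1 when a mouse was left out (0 without mouse 3 or mouse 4); with the mouse as a replicate block, 1. Signal over background could not be examined.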
